A study of Mus musculus with 16 samples.

Results

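Hippocampal RNA of SAMP8 mice given an antisense oligonucleotide against the amyloid beta precursor protein (AβPP antisense, 4 mice) was compared with that of SAMP8 mice given an oligonucleotide of random sequence (random antisense, 4 mice). These 8 arrays, chosen by sample title, are part of 16: the others are 4 untreated SAMP8 mice and 4 untreated Control mice. SAMP8 is a senescence-accelerated strain described in the labels as impaired in memory at 12 months. Control mice came from backcrossing (50%) SAMP8 with CD-1 and are described as free of that impairment, so both untreated groups carry SAMP8 alleles. All 16 mice were males of 12 months, each array held the hippocampus of 1 mouse, and both oligonucleotides were given intravenously. The question put by the design is how the AβPP antisense altered hippocampal gene expression beyond what an oligonucleotide with no intended target does.

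App encodes the membrane protein from which the secretases release amyloid beta, and it is abundant in neurons. An antisense oligonucleotide pairs with its target transcript and can lead to cleavage of that RNA by RNase H or block its use without degrading it. A fall of the target RNA is therefore one possible outcome and not a required one. Each Affymetrix probe set reads a short stretch near the 3′ end of a transcript, so several probe sets of a gene can report different transcript forms. Of 45037 probe sets other than controls, 23905 passed a filter on low signal (over 4 on the log2 scale on at least 4 of the 16 arrays) and were tested. They stand for 11465 genes with a symbol of their own, each through its brightest tested probe set. All levels are log2 values, and each difference is AβPP antisense minus random antisense on that scale with its standard error.

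The 4 AβPP antisense arrays were less alike than the random antisense arrays. Beta-actin and Gapdh control probe sets read the 5′ and 3′ parts of their transcripts, and a larger 3′ minus 5′ difference goes with shorter or less complete cRNA. For beta-actin this difference was 1.60, 1.60, 1.21 and 3.89 in AβPP antisense replicates 1 to 4, against 1.32, 1.22, 1.21 and 1.32 with random antisense (2.08 ± 1.23 against 1.27 ± 0.06, SD, n = 4 and 4, two-sided exact permutation p = 0.143). For Gapdh it was 0.21 ± 0.72 against -0.34 ± 0.04 (exact permutation p = 0.0857). An 18S ribosomal RNA control read 11.04, 6.53, 7.86 and 14.72 with AβPP antisense, and between 6.08 and 8.54 with random antisense (exact permutation p = 0.314). The median Spearman correlation of an array with the other 15 was 0.968, 0.958, 0.982 and 0.905 in the 4 AβPP antisense arrays. It was between 0.984 and 0.989 in the 4 random antisense arrays, and 0.917 in Control replicate 4. AβPP antisense replicate 4 was thus the farthest array on all 4 measures, and each main count is given with and without it. The treatment label of random antisense replicate 1 says none, against its title, source and description, and it was kept with random antisense. Of the markers of hippocampal neurons, 16 of 20 genes of CA1 to CA3 pyramidal cells and 14 of 15 of dentate granule cells passed the filter. So did 20 of 20 genes of thalamus and habenula, 17 of 21 of striatum and 20 of 26 of choroid plexus, so these counts do not set the hippocampus apart from its neighbours.

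**Figure D1:**
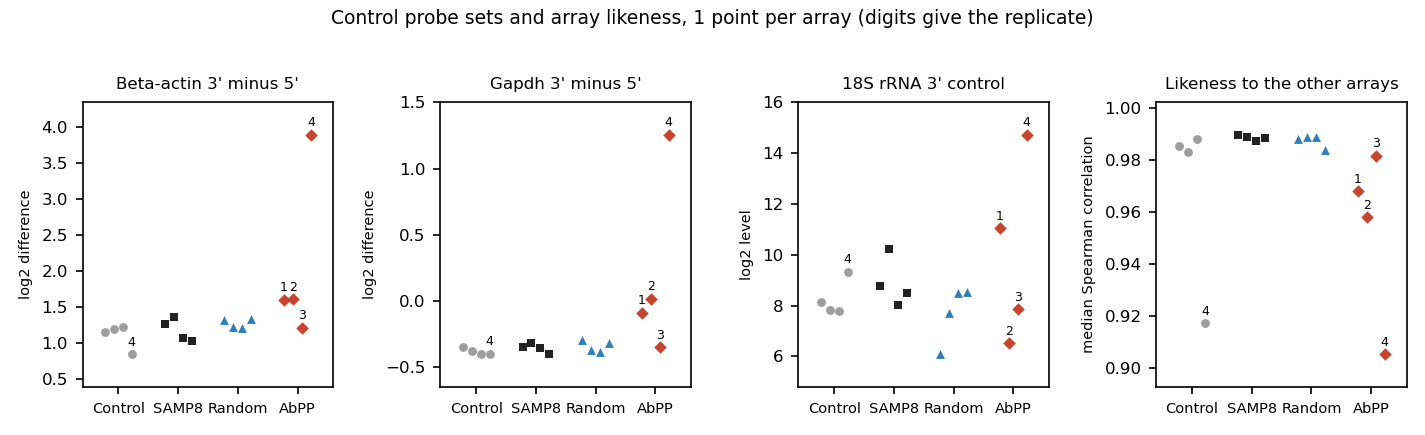
Control probe sets and likeness of the 16 arrays, 1 point per array in 4 groups of 4: the beta-actin and Gapdh 3′ minus 5′ differences and the 18S rRNA level (log2), and the median Spearman correlation with the other 15 arrays. AβPP antisense replicate 4 is highest on the first 3 panels (3.89 for beta-actin) and lowest on the last (0.905), next to Control replicate 4 (0.917).

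App RNA did not pass the test. Its brightest probe set (1427442_a_at) read 14.19, 14.32, 14.26 and 13.89 with AβPP antisense and 14.43, 14.39, 14.37 and 14.34 with random antisense. All 4 AβPP antisense arrays lay below the 4 random antisense arrays, by a small margin. The difference was -0.22 ± 0.13 (limma, adjusted p = 0.503), and the exact permutation p over the 8 arrays was 0.0286, the smallest that 4 against 4 can give. Any gene whose groups do not overlap gets this p. Of all genes, by brightest probe set, 2.26% were lower and 4.69% higher without overlap. Without AβPP antisense 4 the App difference was -0.13 ± 0.12 (adjusted p = 0.780). The other measured App probe set (1420621_a_at) read 12.81, 13.27, 13.35 and 10.59 against 13.66, 13.54, 13.52 and 13.48. It too was lower in all 4 arrays, most in AβPP antisense 4 (difference -1.05 ± 0.43, adjusted p = 0.359, and -0.41 ± 0.15, adjusted p = 0.344, without that array). Untreated SAMP8 mice stood at 14.35 to 14.39 and 13.49 to 13.72 on these probe sets. Of the 18 measured genes of App, its homologues, adaptors and secretases, 8 were higher and 10 lower, with a median difference of -0.03, and none was called; the member of smallest p was Adam10, the main alpha-secretase (-0.24 ± 0.10, adjusted p = 0.377).

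At an adjusted p under 0.05 (limma, Benjamini-Hochberg over all 23905 probe sets), 20 probe sets differed between AβPP and random antisense, which is 0.0837% of those tested. The largest changes were falls of 1 or 2 probe sets of Nudt21, Dync1li1 and Ube2b, while other probe sets of Nudt21 and Ube2b differed little. The 20 name 13 genes. Of the 20, 17 were lower with AβPP antisense (0.0711% of those tested) and 3 were higher (0.0125%), and in all 20 the 4 AβPP antisense arrays did not overlap the 4 random antisense arrays. The 20 were chosen by p on these same arrays, which favours such separation. Of all 11465 genes, by brightest probe set, 2.26% were lower and 4.69% higher without overlap. An unadjusted p under 0.05 was reached by 2935 probe sets, where 1195 would be expected by chance. That expectation holds for groups of equal spread. The AβPP antisense arrays were less alike than the random antisense arrays, so a shared spread can understate the standard error of this comparison. The excess is thus not a count of changed probe sets. The same fit gave 267 for random antisense against untreated SAMP8 mice. Of the 20, 10 stayed called whichever of the 16 arrays was left out, 4 in 13 to 15 of the 16 fits, and 6 (Irak2, Mzt1, Lasp1, 1440292_at, 1443689_at and 1459704_at) in 3 to 6 of them. The count rested on the spread shared by all 16 arrays: with the 8 treated arrays alone, limma called 0, the smallest adjusted p being 0.0602 and 2035 probe sets having an unadjusted p under 0.05. It was 11 without random antisense 1, 2 or 3, 31 without AβPP antisense 1, 35 without AβPP antisense 2, 896 without AβPP antisense 3, 68 without AβPP antisense 4 and 58 without Control 4 (0.243%), and 13 with random antisense 1 read as untreated.

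**Figure D2:**
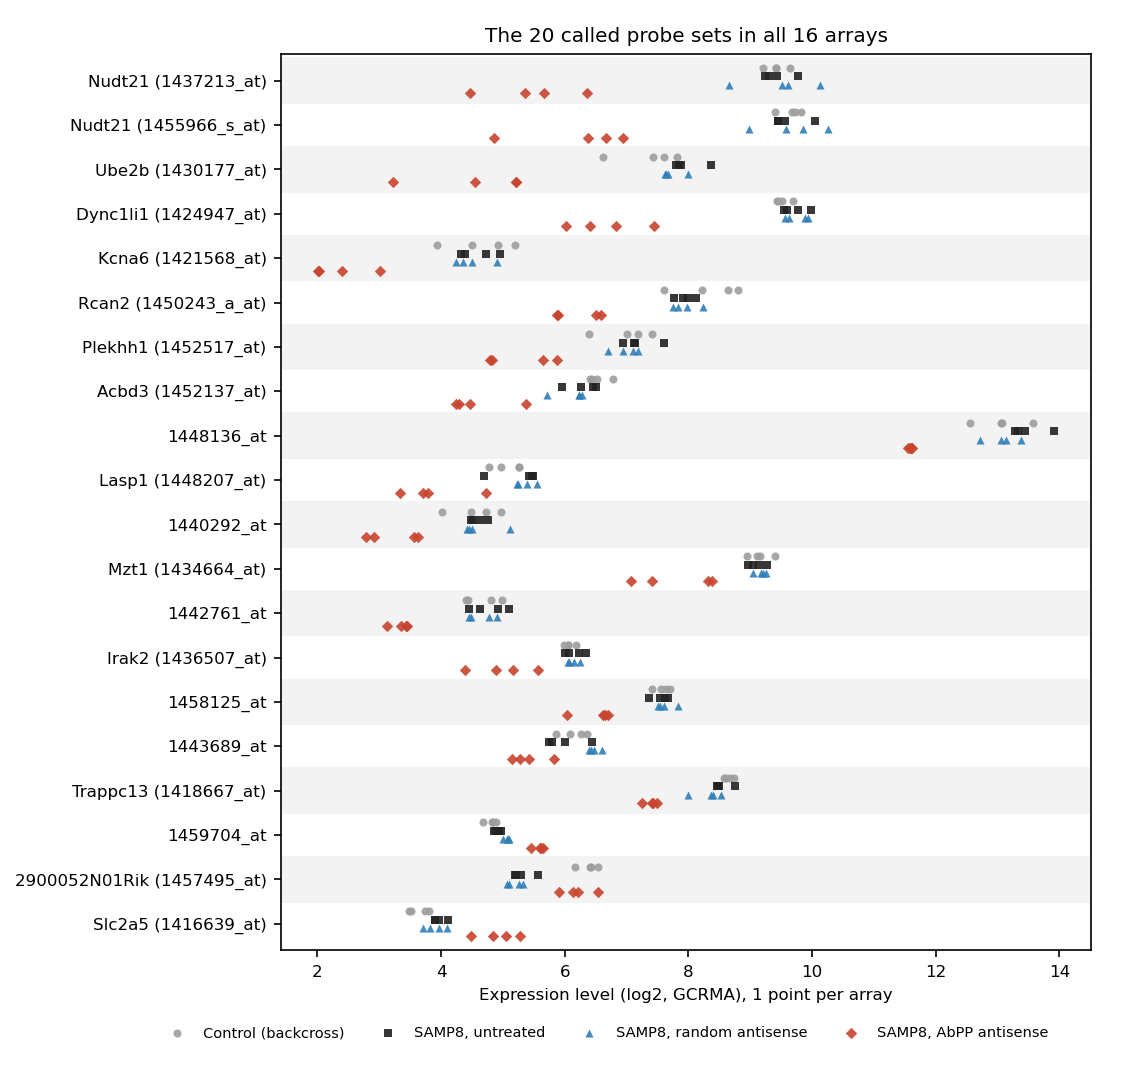
Level (log2) of the 20 called probe sets in all 16 arrays, 1 point per array, ordered from the largest fall to the largest rise. In every line the 4 AβPP antisense points lie apart from the 4 random antisense points, which the choice by p on these arrays favours. Untreated SAMP8 and Control points mostly lie with random antisense, except for 2900052N01Rik, where the Control points lie with AβPP antisense.

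The largest fall was in a gene of mRNA 3′ end formation. Nudt21 encodes the small subunit of cleavage factor Im, which sets the choice of polyadenylation site. Its probe set 1437213_at read 5.35, 4.47, 5.66 and 6.36 with AβPP antisense and 8.66, 10.13, 9.62 and 9.52 with random antisense. Every AβPP antisense array was over 2 log2 units below every random antisense array. The difference was -4.02 ± 0.34, or 16.2-fold (adjusted p = 8.23e-05), and -4.32 ± 0.31 without AβPP antisense 4. Probe set 1455966_s_at, whose suffix marks probes shared by several transcripts, fell by 3.46 ± 0.37 (adjusted p = 0.00119). The other Nudt21 probe sets were not called. On 1417681_at the arrays read 9.43, 9.46, 9.58 and 9.38 against 9.55, 10.01, 9.85 and 9.68 (-0.31 ± 0.20, adjusted p = 0.557). On 1428339_at the difference was 0.02 ± 0.20 (adjusted p = 0.976). Of the 4 Nudt21 probe sets, 2 thus fell far and 2 stayed within 0.31 of random antisense on average.

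Dync1li1 encodes a light intermediate chain of cytoplasmic dynein, which links the motor to its cargo adaptors, and it had the smallest p of all. It read 7.44, 6.41, 6.83 and 6.02 with AβPP antisense and 9.57, 9.88, 9.63 and 9.94 with random antisense. All 4 arrays of the first group were far below those of the second, with AβPP antisense 4 the lowest. The difference was -3.08 ± 0.23, or 8.46-fold (adjusted p = 2.93e-05), and -2.86 ± 0.20 without AβPP antisense 4. The gene has no other tested probe set. Mzt1, a small protein of the gamma-tubulin ring complex, read 8.32, 7.06, 8.38 and 7.41 against 9.25, 9.05, 9.20 and 9.17 on 1434664_at (-1.38 ± 0.24, adjusted p = 0.0479). Its call was lost without AβPP antisense 4 (adjusted p = 0.0557), and its 2 other tested probe sets differed by -0.22 ± 0.13 and -0.11 ± 0.11.

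Of the ubiquitin and Golgi genes, Ube2b changed most. It encodes a ubiquitin-conjugating enzyme of the RAD6 type, which acts on histones and in DNA damage tolerance. On 1430177_at it read 5.21, 4.55, 5.21 and 3.23 with AβPP antisense and 7.62, 7.63, 8.0 and 7.67 with random antisense. The groups were over 2 log2 units apart at their nearest arrays (-3.18 ± 0.37, 9.04-fold, adjusted p = 0.00224, and -2.74 ± 0.26 without AβPP antisense 4). Its other 3 probe sets ranged from -0.40 to 0.04, with adjusted p of 0.676 or more. Trappc13, a subunit of the TRAPP complexes of Golgi traffic, read 7.42, 7.49, 7.40 and 7.25 against 8.0, 8.40, 8.53 and 8.36 on 1418667_at. The fall was smaller but even across arrays (-0.93 ± 0.12, adjusted p = 0.0059), while its other 2 probe sets differed by 0.08 and 0.17. Acbd3, a Golgi protein that recruits phosphatidylinositol 4-kinase beta, read 4.29, 4.47, 5.37 and 4.23 against 6.23, 6.28, 6.23 and 5.71 on 1452137_at (-1.52 ± 0.23, adjusted p = 0.0159). Its other 3 probe sets were all lower too, by -1.15 to -0.33, without passing the test.

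Among ion channel and signalling genes, Kcna6 encodes the voltage-gated potassium channel subunit Kv1.6 of neurons. Its called probe set 1421568_at is dim: it read 2.01, 2.40, 3.02 and 2.03 with AβPP antisense and 4.90, 4.50, 4.25 and 4.36 with random antisense. The difference of -2.14 ± 0.28 (adjusted p = 0.0059) is no longer called when values under 4 are set to 4 (-0.50). Its other probe sets showed -0.84 ± 0.55 and 0.14 ± 0.24. Rcan2, a regulator of the calcium-dependent phosphatase calcineurin, read 5.89, 6.51, 6.59 and 5.88 against 8.23, 7.98, 7.75 and 7.84 on 1450243_a_at. No AβPP antisense array came within 1 log2 unit of the random antisense arrays (-1.73 ± 0.24, 3.33-fold, adjusted p = 0.00776), while the other Rcan2 probe set differed by -0.42 ± 0.25 (adjusted p = 0.508).

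Irak2, a kinase-like adaptor of the interleukin-1 and Toll-like receptors, has a single tested probe set. It read 4.89, 4.39, 5.16 and 5.56 with AβPP antisense and 6.06, 6.25, 6.16 and 6.05 with random antisense (-1.13 ± 0.19, adjusted p = 0.0394). AβPP antisense 4 was the nearest to the random antisense arrays, and without it the difference was -1.32 ± 0.15 (adjusted p = 0.00262). The call was lost in 17 of 25 alternatives, 12 of them fits without 1 array, with adjusted p up to 0.464. Plekhh1, a protein with pleckstrin homology and FERM domains, read 5.65, 5.87, 4.79 and 4.82 against 7.10, 6.95, 7.18 and 6.70 on 1452517_at (-1.70 ± 0.26, adjusted p = 0.0211). A second Plekhh1 probe set, 1435053_s_at, gave nearly the same difference (-1.68 ± 0.30, adjusted p = 0.0615) and was called without AβPP antisense 4 (-1.99 ± 0.25, adjusted p = 0.00424). Lasp1, an actin-binding LIM and SH3 domain protein, read 3.71, 3.79, 4.72 and 3.34 against 5.54, 5.39, 5.24 and 5.23 on 1448207_at (-1.47 ± 0.25, adjusted p = 0.0479, and 0.0515 without AβPP antisense 4). Its 6 other tested probe sets differed by -0.17 to 0.16.

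Only 3 probe sets rose. Slc2a5 encodes GLUT5, the fructose transporter, which in brain is best known from microglia. It read 5.27, 4.48, 4.85 and 5.05 with AβPP antisense and 3.96, 3.83, 3.71 and 4.09 with random antisense, all in the low range of the array. Of the 12 arrays outside the AβPP antisense group only 2 exceeded 4, so it passed the filter only through the AβPP antisense arrays. All 4 arrays of the first group were above the second (1.01 ± 0.15, 2.02-fold, adjusted p = 0.0181). The clone gene 2900052N01Rik read 6.14, 6.53, 6.22 and 5.90 against 5.32, 5.07, 5.26 and 5.09 on 1457495_at (1.01 ± 0.14, adjusted p = 0.00776). It was the only called probe set that also differed between untreated SAMP8 and Control mice (-1.07, adjusted p = 0.00178): its levels were 5.20 to 5.56 in untreated SAMP8 and 6.17 to 6.53 in Control, so that the AβPP antisense arrays lay near the Control line. Its brightest probe set was 0.55 ± 0.22 higher without being called (adjusted p = 0.341). The third was 1459704_at, with no gene symbol (0.52 ± 0.09, adjusted p = 0.0479).

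The called probe sets without a single gene symbol numbered 6. Of these 1448136_at was the brightest and the most even: it read 11.62, 11.58, 11.59 and 11.55 with AβPP antisense and 13.14, 12.71, 13.06 and 13.37 with random antisense (-1.49 ± 0.20, adjusted p = 0.00631). Its 4 AβPP antisense values lay within 0.1 log2 units of each other. Probe sets 1458125_at, 1442761_at, 1440292_at and 1443689_at fell by between 1.05 and 1.40. Of these, 1442761_at and 1440292_at were no longer called when values under 4 were set to 4.

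Beyond the 3 genes with a single tested probe set (Dync1li1, Irak2 and Slc2a5), no gene was called on all of its probe sets. For the 10 genes with several tested probe sets, the brightest was never the called one, and 25 of their probe sets were not called. Of these 25, 18 had the same sign as the called one. The 3′ minus 5′ differences of AβPP antisense 1, 2 and 4 exceeded those of every random antisense array for beta-actin and Gapdh. Those of AβPP antisense 3 did not. With the beta-actin difference as a covariate, 17 of the 20 called probe sets stayed called. Whether transcript form or the completeness of the cRNA sets called and uncalled probe sets of a gene apart was not tested. With each gene represented by its brightest probe set, 3 of 11465 genes were called (0.0262%), which were Dync1li1, Irak2 and Slc2a5. This count was 1 without random antisense 1 or 3, and 7, 11, 161 and 20 without AβPP antisense 1, 2, 3 and 4 in turn.

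**Figure D3:**
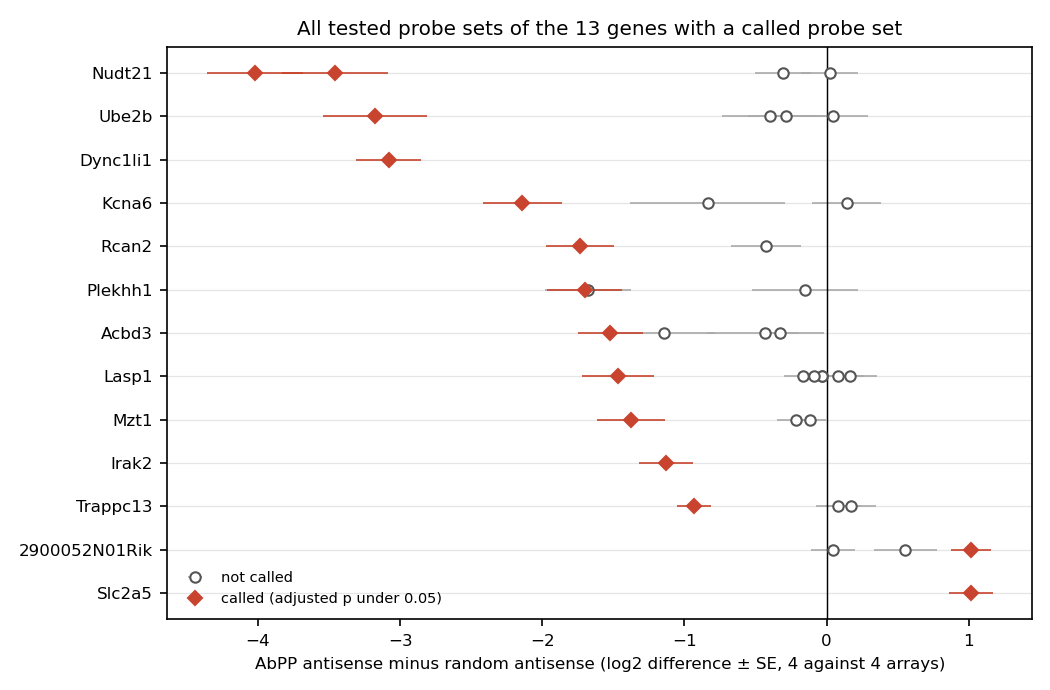
Difference AβPP antisense minus random antisense (log2, ± SE, 4 against 4 arrays) of all tested probe sets of the 13 genes with a called probe set; filled diamonds are called, open circles are not. Called and uncalled probe sets of Nudt21 (-4.02 and 0.02) and Ube2b (-3.18 and 0.04) lie far apart, while 1 uncalled probe set each of Plekhh1 (-1.68) and Acbd3 (-1.15) lies near the called one.

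Among genes outside these, those of smallest p that were higher included genes of vessels and of the Notch pathway, none of them called. Prom1, a membrane glycoprotein of ependymal and progenitor cells, read 8.37, 8.54, 8.07 and 8.46 against 7.69, 7.63, 7.66 and 7.37 (0.77 ± 0.15, adjusted p = 0.0688). Nrarp, a feedback inhibitor of Notch, read 8.37, 8.15, 8.16 and 8.54 against 7.18, 7.68, 7.36 and 7.06 (0.98 ± 0.20, adjusted p = 0.0801). Vcam1, the vascular adhesion molecule, read 9.59, 9.72, 9.78 and 9.69 against 9.16, 8.99, 9.25 and 9.14 (0.56 ± 0.12). In each of these 3 genes the groups did not overlap, which their choice by smallest p favours. The endothelial genes Ramp2 (0.98 ± 0.21) and Slco1a4 (0.83 ± 0.19), the metal-binding Mt2 (0.79 ± 0.18), the endocytic adaptor Eps15l1 (0.71 ± 0.15), the lysophospholipase Pnpla7 (0.72 ± 0.16) and the hydrolase Ovca2 (0.82 ± 0.18) had adjusted p between 0.0913 and 0.115. In the other direction, below Dync1li1 and Irak2, stood the choroid plexus genes Clic6 and Folr1, Ankrd45 of the motile cilia list (-1.61 ± 0.31), the exoribonuclease gene Xrn1 (-1.63 ± 0.33), the transcription regulators Cited2 (-0.68 ± 0.14) and Usf1 (-1.71 ± 0.37), the mitochondrial malic enzyme gene Me2 (-0.84 ± 0.17) and the mTOR inhibitor gene Deptor (-1.20 ± 0.26), with adjusted p between 0.0688 and 0.0974.

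Without AβPP antisense 4 the same fit called 68 probe sets (0.284%), 13 higher and 55 lower, and genes of the choroid plexus, the epithelium in the ventricles that secretes cerebrospinal fluid, came forward among the lower ones. The 68 included 18 of the 20 above, all but Mzt1 and Lasp1. They named 45 genes, and by brightest probe set 20 genes were called (0.174%): 14 lower (0.122%) and 6 higher. Of the 45, 33 had several tested probe sets, and 1 of these was called on all of them. Their uncalled probe sets numbered 62, of which 50 had the sign of the called one. The array left out still lay beyond all 4 random antisense arrays, on the same side as the others, for 54 of the 68, and within their range or on the other side for 14. The share over all tested probe sets was not computed. AβPP antisense 4 was the array farthest from the others, so 54 of 68 may be no more than for probe sets at large. The 68 were chosen with the same random antisense arrays, so this count is not an independent check. Without AβPP antisense 4, the 3 remaining AβPP and 4 random antisense arrays alone gave 1 call, and leaving out a further array gave from 26 (random antisense 1) to 38 (random antisense 3) calls among random antisense arrays, 62 without AβPP antisense 1, 302 without AβPP antisense 2 and 769 without AβPP antisense 3.

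**Figure D4:**
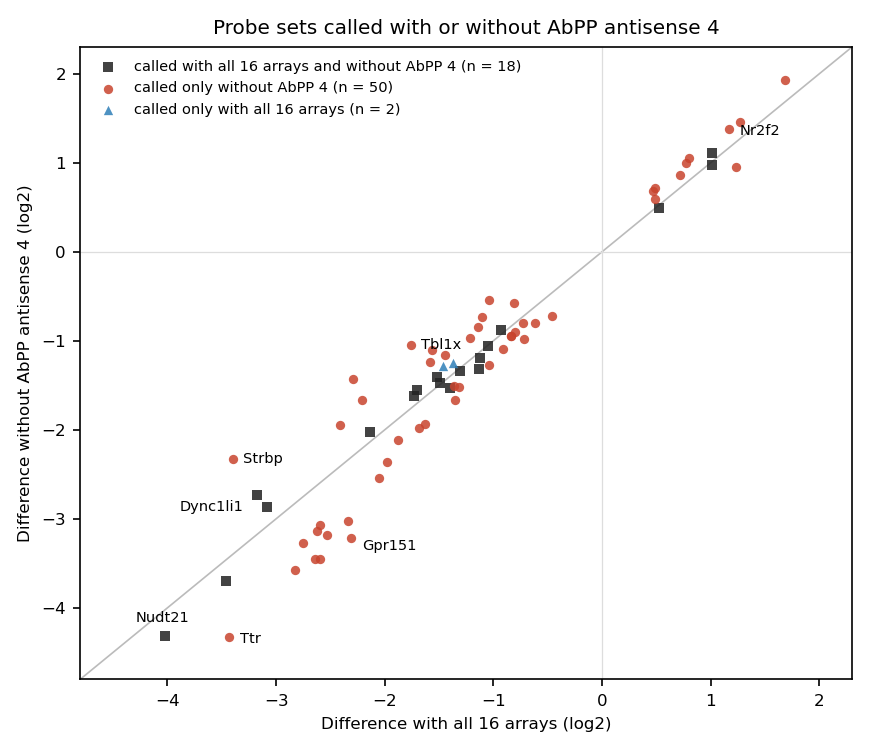
Difference (log2) of each of the 70 probe sets called with all 16 arrays or without AβPP antisense 4, computed with all arrays (horizontal) and without that array (vertical); the line marks equality. All 70 keep their sign; Ttr, Gpr151 and their neighbours lie under the line, being further from 0 without the array, and Strbp and Tbl1x lie above it, being closer to 0.

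Ttr, which encodes transthyretin, the thyroxine and retinol carrier made by the choroid plexus, was the only gene called on all of its several probe sets. The brightest, 1454608_x_at, read 13.26, 10.84, 13.45 and 15.28 in AβPP antisense 1 to 4 and 15.58, 15.27, 15.59 and 15.74 with random antisense. Replicates 1 to 3 were well below, whereas replicate 4 lay among the random antisense arrays. Its difference was -3.03 ± 0.44 without replicate 4 (8.15-fold, adjusted p = 0.0112) and -2.34 with it (adjusted p = 0.154). The other 3 Ttr probe sets gave -4.33, -3.58 and -3.45 without that array. Folr1, the folate receptor alpha that carries folate across this epithelium, read 4.04, 3.44, 4.25 and 6.53 against 7.05, 6.50, 6.98 and 7.86. It fell by 3.19 ± 0.33 without replicate 4 (adjusted p = 0.000781), and replicate 4 was between the lowest and the next random antisense array. Ecrg4, the precursor of a secreted peptide abundant in this epithelium, was called on 2 of 3 probe sets, the brightest with 6.16, 4.14, 5.78 and 8.79 against 8.01 to 9.58 (-3.45 ± 0.46, adjusted p = 0.00485).

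Channel genes of the same epithelium fell as well in the fit without replicate 4. Kcne2, a potassium channel beta subunit, read 2.15, 2.77, 2.46 and 4.53 against 5.82, 4.48, 6.52 and 6.11 (-3.27 ± 0.59 without replicate 4, adjusted p = 0.0327). Kcnj13, the inward rectifier Kir7.1, read 4.65, 2.88, 5.91 and 6.37 against 7.54, 6.94, 7.49 and 8.22 (-3.06 ± 0.53, adjusted p = 0.0284). Clic6, an intracellular chloride channel protein, read 5.68, 6.0, 5.60 and 6.70 against 7.78, 7.03, 8.05 and 8.63 (-2.11 ± 0.35, adjusted p = 0.0232). In Clic6 and Kcnj13 every AβPP antisense array, replicate 4 included, was under the lowest random antisense value. Calml4, a calmodulin-like protein, read 3.88, 4.37, 4.69 and 5.82 against 6.68, 5.88, 6.48 and 7.64 (-2.36 ± 0.41, adjusted p = 0.030). Untreated SAMP8 mice stood at 7.74 to 9.29 for Clic6 and 8.10 to 8.62 for Kcnj13, so the AβPP antisense arrays lay below the untreated ones too.

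Gpr151, an orphan receptor of the habenula, a region next to the dorsal hippocampus, read 4.23, 3.20, 4.80 and 7.69 against 7.19, 6.10, 7.92 and 7.94 (-3.21 ± 0.50 without replicate 4, adjusted p = 0.0145). Replicate 4 lay within the random antisense range here as well. Xrn1, the main cytoplasmic 5′ to 3′ exoribonuclease, read 6.42, 5.79, 4.79 and 6.86 against 7.46, 7.46, 7.52 and 7.93 (-1.93 ± 0.29, adjusted p = 0.0138) and lay lower in all 4 arrays. Me2 fell by 0.94 ± 0.17 (adjusted p = 0.0361) on its brightest probe set. Its 3 other tested probe sets ranged from -0.71 to 0.54, and only 1 of them was lower. Fscn1, an actin-bundling protein, and Fnip2, a partner of folliculin, completed the 14 lower genes; both lie outside the rule for naming genes and were chosen after their values were seen. The higher genes, beside Slc2a5, were Myl9, a myosin light chain of smooth muscle (1.05 ± 0.16), Hpgd, which degrades prostaglandins (1.00 ± 0.17), Eps15l1 (0.86 ± 0.13), Pnpt1, a mitochondrial polynucleotide phosphorylase (0.72 ± 0.12), and Clk4, a kinase of splicing factors (0.68 ± 0.12). For Myl9 the arrays read 6.55, 6.67, 6.90 and 5.69 against 5.28 to 5.95, so replicate 4 again fell in the random antisense range. It did so too for Hpgd (4.88 against 4.64 to 5.10) and Clk4 (8.74 against 8.73 to 9.03). For Pnpt1 replicate 4 lay below every random antisense array (7.71 against 7.76 to 8.03). With all arrays, AβPP antisense differed from untreated SAMP8 mice by 0.63 for Myl9, 0.90 for Hpgd and 0.42 for Eps15l1. It differed by 0.26 for Pnpt1 and -0.05 for Clk4, and none of these was called. Random antisense differed from untreated SAMP8 mice by -0.17, 0.13, -0.29, -0.23 and -0.52 in the same order.

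The 38 gene lists and their members were chosen with earlier results of these data known. Their ranks, counts and medians, here and below, are thus descriptive and not independent support. Of the 38, that of the choroid plexus epithelium had the lowest median. Of its 20 measured genes, 19 were lower with AβPP antisense, with a median difference of -1.29, beside a median of 0.04 over all 11465 genes, of which 6512 were higher. No choroid gene was called with all arrays, and 4 had groups that did not overlap, all lower (beside 2.26% of all genes). Without AβPP antisense 4, 6 of 20 were called lower (beside 0.122% of all genes), all 20 were lower, and the median was -1.39. The array values were set against the mean of untreated SAMP8 mice: the median over the list was -1.19, -2.08, -1.60 and -0.70 in AβPP antisense 1 to 4 and -0.18, -0.64, -0.26 and 0.17 with random antisense. Every AβPP antisense array was below every random antisense array, with replicate 4 nearest. Leaving out each AβPP antisense array in turn kept the median between -1.47 and -1.12. In RNA of a whole dissected tissue, fewer cells of a type and less RNA per cell cannot be told apart.

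The list of thalamus and habenula genes, regions that adjoin the hippocampus, moved in only some arrays. Of 20 measured genes 18 were lower, with a median difference of -0.55. Its array medians were -2.39, -0.73, -2.01 and 0.24 with AβPP antisense and -0.26, -0.83, -0.20 and -0.62 with random antisense. AβPP antisense 1 and 3 were far below all others, replicate 2 lay within the random antisense range and replicate 4 above it. The median difference was -0.22 without AβPP antisense 1, -0.16 without 3, -0.74 without 2 and -1.09 without 4, so its size rested on replicates 1 and 3. As an example, Zic1, a transcription factor of medial thalamus and habenula, read 9.11, 11.41, 9.80 and 11.37 against 11.93, 11.16, 12.22 and 11.65 (-1.32 ± 0.45, adjusted p = 0.276). Ciliated ependyma genes (14 measured) had a median of -0.14, with Ankrd45 among the lowest and Prom1 among the highest. The part of these neighbouring tissues in the other results was not tested.

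**Figure D5:**
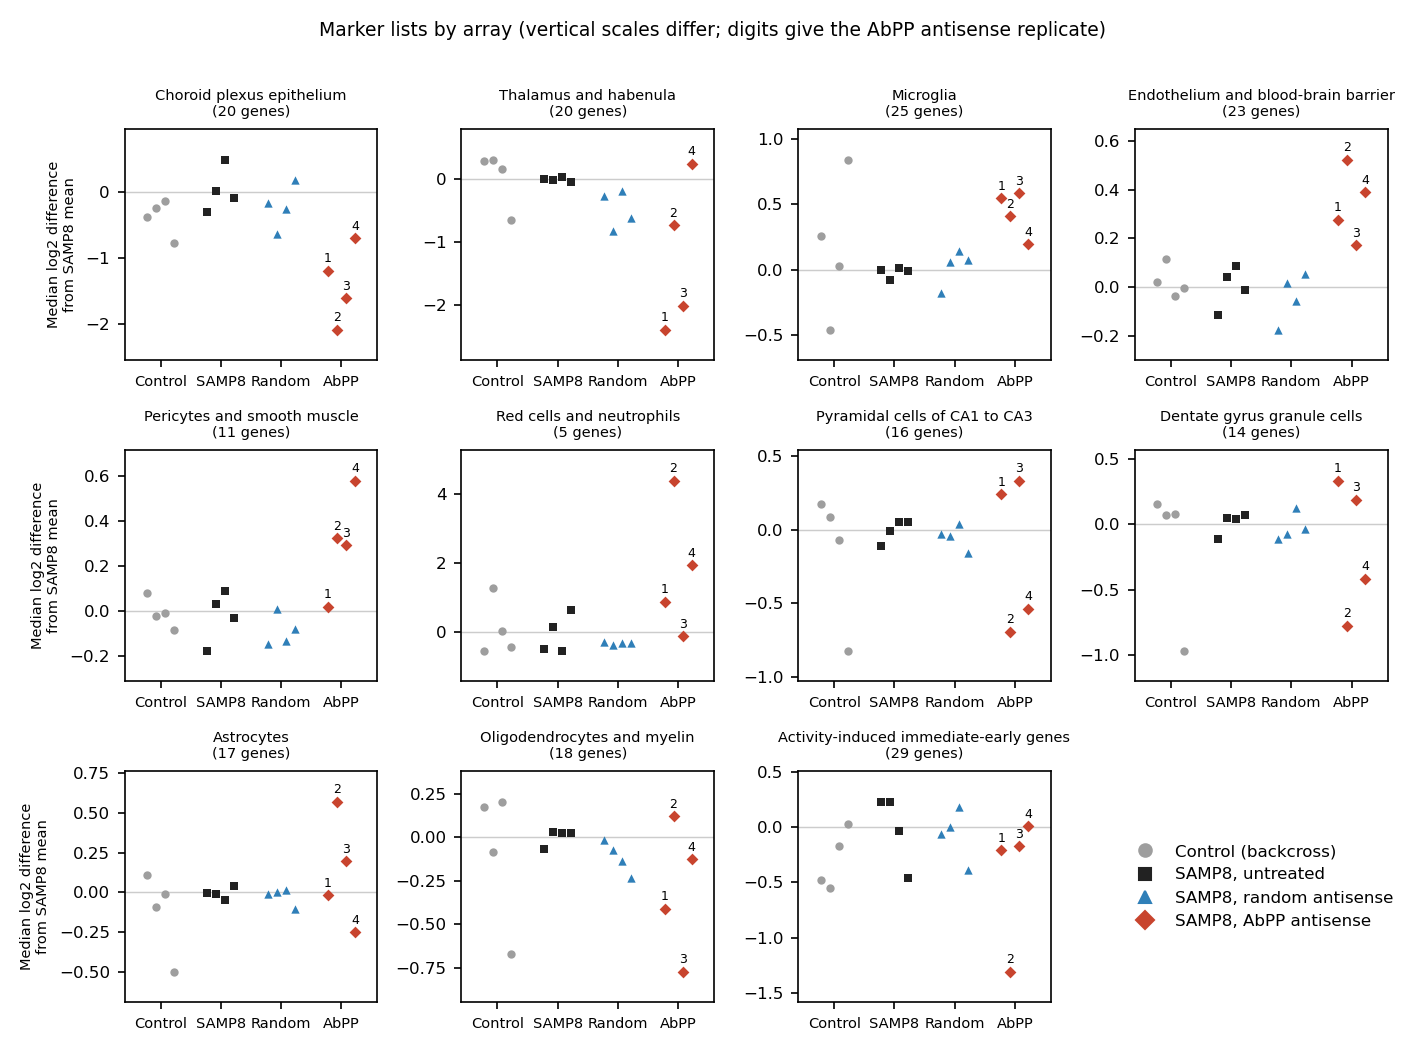
Median log2 difference of a marker list from the mean of untreated SAMP8 mice, 1 point per array, for 11 lists; digits give the AβPP antisense replicate and the vertical scales differ. The choroid plexus list is lower in all 4 AβPP antisense arrays (-0.70 to -2.08) than in the random antisense arrays, with Control 4 (-0.77) level with replicate 4, the thalamus list in replicates 1 and 3 (-2.39 and -2.01), and the vascular and microglial lists are higher in all 4. On the microglial list Control 4 (0.84) lies above all 4 AβPP antisense arrays.

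Genes of vessel walls were higher with AβPP antisense, without passing the test gene by gene. Of 23 measured endothelial and blood-brain barrier genes 18 were higher (median 0.36), and 6 had groups that did not overlap, beside 4.69% of all genes in that direction. All 11 measured genes of pericytes and smooth muscle were higher (median 0.33), and 9 of 11 without AβPP antisense 4 (median 0.37). On this list the array median of AβPP antisense 1 (0.019) was just above that of random antisense 2 (0.008). The endothelial array medians were 0.28, 0.52, 0.17 and 0.39, against -0.17, 0.02, -0.06 and 0.05 with random antisense. All 4 arrays were above all random antisense arrays. Rgs5, a regulator of G protein signalling of pericytes, was 10.31 ± 0.16 against 9.77 ± 0.20 (SD, n = 4 and 4, difference 0.54 ± 0.13, adjusted p = 0.129). Higd1b, of the same cells, differed by 1.40 ± 0.44 (adjusted p = 0.244), Vtn by 0.40 ± 0.14 and Abcg2, an efflux pump of the barrier, by 0.36 ± 0.12.

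Microglial genes were likewise higher in sum. Of 25 measured, 22 were higher (median 0.45) and 10 had groups that did not overlap, again beside 4.69% of all genes. The list contains Slc2a5, its only called member (beside 0.0262% of all genes), which passed the filter only through the AβPP antisense arrays. Its array medians were 0.55, 0.41, 0.59 and 0.20 with AβPP antisense and -0.18, 0.06, 0.14 and 0.07 with random antisense, with no overlap. Untreated SAMP8 mice reached from -0.08 to 0.01 and Control mice from -0.46 to 0.84. Control 4 (0.84) was above all 4 AβPP antisense arrays, and Control 1 (0.26) above AβPP antisense 4. Mertk, a receptor for engulfing dead cells, read 9.21, 9.0, 9.06 and 9.31 against 8.50, 8.57, 8.56 and 8.76 (0.55 ± 0.14, adjusted p = 0.153). Aif1, known as Iba1, read 8.79, 8.74, 8.62 and 9.15 against 7.98, 8.20, 8.21 and 8.30 (0.65 ± 0.17, adjusted p = 0.183), and C1qc, a complement component, 8.28, 8.44, 8.22 and 8.50 against 7.34, 7.81, 7.57 and 7.70 (0.75 ± 0.33, adjusted p = 0.379). In these 3 genes every AβPP antisense array was above every random antisense array, which their choice by smallest p favours. Control replicate 4, whose leukocyte list stood 5.91 above the SAMP8 mean, also enters the shared spread of these genes. Without it 15 of 11465 genes were called (0.131%), among them Selplg, a selectin ligand of this list named after its values were seen, and Slc2a5. Without both it and AβPP antisense 4, 70 genes were called (0.611%), with 3 of 25 microglial genes (Aif1, Selplg and Slc2a5), 2 of 23 endothelial genes (Ramp2 and Vcam1) and 7 of 20 choroid plexus genes.

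Blood cell genes differed between the arrays of the AβPP antisense group. Of the 22 red cell and neutrophil genes listed, 5 passed the filter, all higher and with no overlap between the groups (beside 4.69% of all genes), and none called. Of the 5, Slc4a1 and S100a9 passed the filter only through the AβPP antisense arrays, and S100a8, Slc4a1 and S100a9 read under 4 on all 4 random antisense arrays, so the common direction is in part set by the filter. Alas2, the haem synthesis enzyme of red cell precursors, read 6.31, 9.81, 5.23 and 6.70 with AβPP antisense and 4.77, 4.56, 4.91 and 4.83 with random antisense (2.25 ± 0.83, adjusted p = 0.310). S100a8, a calcium-binding protein of neutrophils, read 4.47, 8.44, 6.94 and 8.75 against 3.14, 3.29, 3.61 and 3.39 (3.79 ± 1.43, adjusted p = 0.316). AβPP antisense 2 was highest for Alas2 and replicates 2 and 4 for S100a8. S100a8 and S100a9 were called without Control 4. The list's array medians were 0.88, 4.38, -0.13 and 1.93 against -0.29 to -0.37. Untreated SAMP8 mice reached from -0.54 to 0.65 and Control mice from -0.54 to 1.28, with Control 2 (1.28) above AβPP antisense 1 and 3. Without AβPP antisense 2 the median difference was 1.31 instead of 2.25. Whether blood left in the tissue bears on the other lists was not tested.

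Neuronal and glial lists showed no common direction over the 4 arrays. The pyramidal cell list stood at 0.24, -0.69, 0.34 and -0.54 in AβPP antisense 1 to 4 and the granule cell list at 0.33, -0.78, 0.19 and -0.41, so replicates 1 and 3 were above and replicates 2 and 4 below all random antisense arrays. For astrocytes the values were -0.02, 0.57, 0.20 and -0.25, and for oligodendrocytes -0.41, 0.12, -0.77 and -0.12. Immediate-early genes, which neurons switch on with activity, were lower in 22 of 29 (median -0.45), none of them called. AβPP antisense 2 alone stood far down at -1.31, the other 3 being between -0.21 and 0.01, and without it the median was 0.01. Fos was 8.67 ± 1.04 against 10.16 ± 1.02 (-1.49 ± 0.66, adjusted p = 0.386) and Egr1 11.52 ± 0.92 against 12.39 ± 0.23 (-0.87 ± 0.37, adjusted p = 0.368). For the synaptic lists the medians were 0.01 for 30 postsynaptic, -0.12 for 36 presynaptic and -0.07 for 24 GABA synapse genes, none of them called. Of the presynaptic genes 26 were lower, 4 of them without overlap of the groups beside 2.26% of all genes.

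Few genes of the same complexes or families were called. Of 23 measured dynein, dynactin and adaptor genes only Dync1li1 was called (beside 0.0262% of all genes), and the median was -0.07; its paralogue Dync1li2 read 10.79 ± 0.14 against 11.10 ± 0.13 (-0.31 ± 0.14, adjusted p = 0.385). None of 20 genes of mRNA 3′ processing was called by its brightest probe set (median 0.02, 11 higher), Papola, the poly(A) polymerase, being the nearest at -0.59 ± 0.21. In mRNA decay 38 genes had a median of 0.03, with Cnot4 (0.46 ± 0.12, adjusted p = 0.153) and Cnot10 (0.43 ± 0.13) of the deadenylase complex on the higher side and Xrn1 on the lower. Of 26 ubiquitin-conjugating enzymes 21 were lower (median -0.17), 4 of them without overlap of the groups beside 2.26% of all genes, and none was called; Ube2n read 10.78 ± 0.33 against 11.20 ± 0.06. Of 27 voltage-gated potassium channel genes 20 were lower (median -0.26), led by Kcna3 (-0.57 ± 0.13, adjusted p = 0.122) and the beta subunit Kcnab3, which was called on another probe set without AβPP antisense 4 (-1.66 ± 0.28). The medians were 0.01 for 30 Golgi tethers and TRAPP subunits, -0.13 for 13 calcineurin and NFAT genes and 0.12 for 17 genes of Toll-like and interleukin-1 receptor signalling.

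No gene of the lists for RNase H and nucleic acid sensing, interferon response or cytokines was called, whereas Irak2 of the Toll-like receptor list was, as given above. Of 12 measured genes of RNase H, oligonucleotide-binding proteins and nucleic acid sensing 9 were higher (median 0.17); Tlr3 read 8.55 ± 0.18 against 8.05 ± 0.08 (0.50 ± 0.15, adjusted p = 0.218) and Rnaseh1, the enzyme that cuts RNA paired with DNA, 6.25 ± 0.29 against 5.96 ± 0.11 (0.29 ± 0.16). Interferon-stimulated genes were higher in 17 of 22 (median 0.34), most in AβPP antisense 2 (0.60, against 0.01, 0.09 and 0.21 in the others), and without that array the median was 0.20; Oasl2 and Iigp1 of this list passed the filter only through the AβPP antisense arrays. Cytokine and chemokine genes had a median of -0.07 over 11, with Il18 at 9.83 ± 0.04 against 9.47 ± 0.07 (0.37 ± 0.13, adjusted p = 0.287). Of 15 genes of amyloid beta clearance 6 were higher (median -0.06), Bin1 having the smallest p (-0.24 ± 0.13). Mitochondrial complex I genes were higher in 26 of 33 (median 0.16), 7 of them without overlap beside 4.69% of all genes, and inducible chaperones were lower in 23 of 28 (median -0.12), with Pdia3 at -0.76 ± 0.24 (adjusted p = 0.245) and Hsp90aa1 at -0.24 ± 0.11. The medians were 0.17 for 20 cholesterol synthesis, 0.11 for 16 Notch, -0.08 for 14 growth factor, -0.07 for 31 insulin and mTOR, 0.02 for 22 MAPK, 0.10 for 17 striatal and near 0 for 15 hexose transport genes (of which Slc2a5 was called), and 0.30 for 5 leukocyte genes.

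Untreated SAMP8 mice served as a second comparison group, which shares the AβPP antisense arrays. Against them AβPP antisense called 69 probe sets (0.289%), and all 20 probe sets called against random antisense had the same sign there, 19 of them called. Dync1li1 differed by -3.05 from untreated SAMP8 mice beside -3.08 from random antisense, Nudt21 (1437213_at) by -3.98 beside -4.02, Ube2b (1430177_at) by -3.42 beside -3.18, and Trappc13 (1418667_at) by -1.16 beside -0.93. The exception was 1443689_at, -0.58 beside -1.05. Random antisense against untreated SAMP8 mice called 0 probe sets (0%, limma). An unadjusted p under 0.05 was reached there by 267, where 1195 would be expected by chance. The fit used the spread shared by all arrays, the less alike AβPP antisense arrays included. With fewer low p-values than chance gives, the 0 calls do not show that the random oligonucleotide had no effect. Why this count was so low was not tested. For the called genes the differences of random antisense from untreated SAMP8 mice were small: 0.03 for Dync1li1, 0.04 for Nudt21, -0.24 for Ube2b and -0.03 for Irak2. They were larger for some genes called only without AβPP antisense 4, such as Clk4 (-0.52) and Nr2f2 (-0.66).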

How the data were processed

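Hippocampal RNA of 16 mice was hybridised to 1 Affymetrix Mouse430 2.0 array per mouse, as biotin-labelled cRNA from 4 µg of total RNA, per the labels' protocols. The authors deposited log2 values per probe set, made with GCRMA per the submitters' processing notes; its version and settings are not given in the sources used here. GCRMA makes all arrays share 1 distribution and corrects background from probe sequence, so depth has no meaning here and the number of arrays limits the precision. The deposited log2 values were used as they are. Of 45037 probe sets other than the 64 Affymetrix controls, 23905 exceeded 4 on at least 4 arrays. GEO's platform annotation gave 34945 probe sets 1 gene symbol, 932 several and 9160 none; only those with 1 were named, and neighbouring genes came from RefSeq's GRCm38.p6 gene table. A gene stands for its tested probe set of highest mean.

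A one-way model over the 4 groups of 4 arrays was fitted with limma 3.58.1 (R 4.3.3; degrees of freedom: 12 residual, 2.63 prior). P-values were adjusted by Benjamini and Hochberg's method over all tested probe sets, with a threshold of 0.05. The fit was first tested on simulated data. Each array is a separate mouse, so p-values measure the spread between mice. Control probe set measures and App were compared by two-sided exact permutation over 70 arrangements. The genes named are App, the called probe sets with the other probe sets of their genes, the 10 genes of smallest p in each direction, up to 12 called genes of largest change in each direction without AβPP antisense 4, and up to 4 members of smallest p of each of 38 gene lists. The members and lists were chosen with earlier results of these data known. Leaving out arrays, other filters, a floor, array weights, a beta-actin covariate, a replicate block and other settings were tried as alternatives.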

Additional observations from a re-analysis of the deposited data

Results flagged for a closer look

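In groups of 4 arrays, 1 array stood apart from the other 3 by Dixon's test in 10 of the 124 groups examined, where chance gives about 1 in 20, or about 6. For the beta-actin 3′ minus 5′ difference, AβPP antisense 4 stood at 3.89. Among called probe sets, random antisense 3 stood apart at 8.0 for Ube2b (1430177_at), AβPP antisense 3 at 6.03 for 1458125_at, random antisense 4 at 5.71 for Acbd3 (1452137_at) and random antisense 1 at 5.11 for 1440292_at. Among the list medians relative to untreated SAMP8 mice, AβPP antisense 4 stood at 0.456 for Toll-like and interleukin-1 receptor signalling, and AβPP antisense 2 at -1.31 for immediate-early genes. Random antisense 4 stood at -0.0748 for the Notch pathway, random antisense 3 at 0.00174 for hexose transport and random antisense 1 at -0.242 for cholesterol synthesis.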

How the results depend on the processing

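All 20 called probe sets kept their sign in the 25 alternatives run for each, but their number did not hold. The count of 20 became 0 with only the 8 treated arrays, 13 with random antisense 1 counted as untreated SAMP8, 13 with a filter at 6 on the log2 scale, 35 with array weights, 59 with the beta-actin 3′ minus 5′ difference as a covariate and 199 without Control 4 and AβPP antisense 4. Leaving out 1 array at a time gave 11 to 896 calls. The count of 3 genes became 0 with the 8 arrays, 9 with array weights, 21 with the covariate, 7 with the mean of all probe sets of a gene, 70 without both arrays, and 1 to 161 without 1 array. The count of 68 without AβPP antisense 4 became 1 with only the 7 arrays, 199 without Control 4 and 26 to 769 without 1 further array. The cause was not tested. The App difference stayed between -0.27 and -0.12 and was not called.

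Of the brightest, uncalled probe sets, that of Plekhh1 turned to 0.21 without AβPP antisense 3 (range -0.55 to 0.21 without 1 array) and reached -0.74 with the covariate. Those of Kcna6, Lasp1, Trappc13 and Ube2b turned to -0.16, -0.081, -0.093 and 0.086 without AβPP antisense 4, with or without Control 4, to -0.19, -0.059, -0.098 and 0.098 with array weights, and to -0.27, -0.15, -0.15 and 0.22 with the covariate. Their ranges without 1 array reached 0.41, 0.29 and 0.18 for Kcna6, Lasp1 and Trappc13, and -0.68 for Ube2b.

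Replicate numbers did not pair the samples (correlations of deviations -0.14, -0.04, 0.18 and 0.19). With the number as a replicate block, 17 probe sets and 2 genes were called. The floor at 4 ended the calls of Kcna6, 1442761_at and 1440292_at.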

Other observations

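Clic6 and Kcne2, both called lower without AβPP antisense 4, lie near Rcan1 in the RefSeq gene order: no protein-coding gene stands between Clic6 and Rcan1, 4 stand between Kcne2 and Rcan1, and 5 between Clic6 and Kcne2. Rcan1, a calcineurin regulator and relative of Rcan2, was itself called lower without that array on 1 probe set (1416601_a_at), with 6.56, 6.35, 7.06 and 4.84 in AβPP antisense 1 to 4 against 7.94, 7.71, 7.68 and 7.74 with random antisense (-1.11 ± 0.20, adjusted p = 0.030 by limma). On the other tested Rcan1 probe set, the brighter one, the difference without that array was -0.18 and not called (limma, adjusted p = 0.617). These neighbours were chosen after their values were seen, from 46 called genes placed in the gene order.

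Other probe sets called without AβPP antisense 4, named after their values were seen, were higher for Nr2f2, a nuclear receptor of veins (7.73, 7.90, 8.39 and 7.17 against 6.48, 6.72, 6.42 and 6.89), for Itpr2, an inositol trisphosphate receptor (5.55, 5.67, 5.87 and 4.92 against 3.61, 4.18, 4.84 and 4.30), and for Slc1a3, the astrocytic glutamate transporter (11.71, 11.57, 11.89 and 11.28 against 11.06, 11.08, 11.28 and 11.09). The Slc1a3 probe set that stands for the gene differed by 0.19. With all arrays, the called probe sets of Nr2f2, Itpr2 and Slc1a3 differed from untreated SAMP8 mice by 0.51, 0.80 and 0.52. Random antisense differed from untreated SAMP8 mice by -0.66, -0.47 and 0.04 on them.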
